A study of Mus musculus with 2 samples.

Results

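Around Klrb1c and Klrb1b, which encode natural killer receptors of the Nkrp1 family, 15 DNase-sensitive regions were found in both libraries labelled as mouse thymus, yet neither gene had a peak at its promoter or within its body in either library. Of these, 14 lay in 3 tight groups outside the genes, and region 13 lay apart. The first 2 groups were copies of each other: 4 open regions 3′ of Klrb1c had a counterpart of 88.3% to 95.4% sequence identity, 38.3 to 38.9 kb away between the genes, that was open as well. Cd69 and Klrd1 had a promoter peak in 1 library only, the one labelled replicate 2. Clec2d and Klrb1f were the 2 genes with a promoter peak in both libraries, and Klrk1 had no peak assigned in either.

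The 8 genes were taken by name from 21911 protein-coding genes of the GENCODE vM21 annotation: Klrb1c, Klrb1b, Klrb1f, Klrd1, Klrk1, Klrc1, Clec2d and Cd69, all on chromosome 6 of the mm10 build. Each gene was taken with 20 kb on each side. The overlapping windows joined into 6 blocks of 358485 bp in all. Each peak whose midpoint fell in a window was assigned once, to the gene body that contained it or else to the nearest one. That gave 25 of the 85367 peaks of replicate 1 and 30 of the 60644 peaks of replicate 2. Merging the peaks that overlapped between libraries by at least 1 bp gave 33 regions, numbered here from 1 to 33 along the chromosome: 20 were found in both libraries, 5 in replicate 1 only and 8 in replicate 2 only. The density of shared regions at Klrb1c and Klrb1b was known when the genes were chosen, and these genes were in effect chosen by that density, so it is given as a description with no test.

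The data were 2 DNase-seq libraries labelled as thymus of male B6CASTF1/J mice, an F1 hybrid strain, aged 36 days. DNase I cuts open chromatin, and footprints are short stretches inside such regions that are protected from cutting. The labels number 2 biological replicates and 2 tissue samples but give both 1 donor identifier, so the spread between the libraries may be technical in part. There was 1 group of 2 libraries, so no difference between them could be tested, and no source used here gives the read depth. Whole tissue was used, so the cell type that carries a peak cannot be told apart.

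The tissue label was compared with marker genes before any result was read. Of all protein-coding genes, 63.1% had a promoter peak in replicate 1 and 60.1% in replicate 2, a promoter peak being one within 1 kb of an annotated transcript start. Of 14 thymocyte genes, 3 had one in replicate 1, where Cd3d, Cd3e, Cd3g, Cd4, Cd8a, Rag1 and Ptcra were among those without, and 14 had one in replicate 2. Of 14 genes of pancreatic acinar cells, 14 had one in replicate 1 and 4 in replicate 2. Of 10 natural killer and cytotoxic genes, none had one in replicate 1, and 4 had one in replicate 2: Eomes, Tbx21, Il2rb and Prf1. The rest of that list, Ncr1, Gzma, Gzmb, Nkg7, Cd244a and Zfp683, had none in replicate 2 either. The library labelled replicate 1 therefore goes against its tissue label at these markers, and each value is given per library. The part of this difference in the results was not tested.

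The natural killer gene complex encodes C-type lectin-like receptors by which natural killer cells and some T cells sense other cells. Klrb1c encodes NK1.1, the antigen that marks natural killer and natural killer T cells in C57BL/6 mice, and Klrb1b encodes an inhibitory Nkrp1 receptor whose ligand, Clr-b, is encoded by Clec2d. Klrb1f encodes a further Nkrp1 receptor. Klrd1 encodes CD94, which pairs with the NKG2 chains such as that of Klrc1, and Klrk1 encodes NKG2D, which binds stress-induced ligands. Cd69 encodes an early activation antigen that thymocytes carry while they are positively selected and that keeps cells in the tissue. Such receptor families grew by tandem duplication and differ between mouse strains. The coordinates used here are those of the reference assembly, and CAST alleles were not analysed here.

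The sequences that carry the copied pattern are shown first, read from the RefSeq GRCm38.p6 assembly, 5′ to 3′. Capitals mark bases that lay in a footprint in both libraries. The first pair is region 1, whose replicate 1 signal was the highest of the 8 genes, and its aligned copy inside region 7.
Region 1, 3′ of Klrb1c (chr6:128760121-128760300, plus strand): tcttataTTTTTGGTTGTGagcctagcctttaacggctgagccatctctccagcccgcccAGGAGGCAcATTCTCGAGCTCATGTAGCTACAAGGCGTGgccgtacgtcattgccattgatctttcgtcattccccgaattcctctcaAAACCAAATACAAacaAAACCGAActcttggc
Copy in region 7, between Klrb1c and Klrb1b (chr6:128798905-128799085, plus strand): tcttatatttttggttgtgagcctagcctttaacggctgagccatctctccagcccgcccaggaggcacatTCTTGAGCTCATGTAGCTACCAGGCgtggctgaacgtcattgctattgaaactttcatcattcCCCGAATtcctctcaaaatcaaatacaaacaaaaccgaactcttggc
The next 6 are copies of an element of 102 bp taken from region 15. Each overlapped a different shared region, those at regions 2, 3, 9 and 11 only in part, and all are oriented like region 15.
Element in region 2 (chr6:128760706-128760801, minus strand): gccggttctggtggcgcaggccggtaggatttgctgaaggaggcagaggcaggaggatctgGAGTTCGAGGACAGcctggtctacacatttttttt
Element in region 3 (chr6:128764123-128764223, minus strand): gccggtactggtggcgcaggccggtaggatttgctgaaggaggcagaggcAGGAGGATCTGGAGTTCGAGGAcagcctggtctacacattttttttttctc
Element in region 9 (chr6:128799442-128799542, minus strand): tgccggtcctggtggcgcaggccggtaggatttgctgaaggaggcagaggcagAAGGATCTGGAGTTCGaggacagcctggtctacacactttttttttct
Element in region 11 (chr6:128803011-128803109, minus strand): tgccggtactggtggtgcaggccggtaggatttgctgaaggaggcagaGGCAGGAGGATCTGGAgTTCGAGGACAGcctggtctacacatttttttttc
Element in region 15 (chr6:128838450-128838551, plus strand): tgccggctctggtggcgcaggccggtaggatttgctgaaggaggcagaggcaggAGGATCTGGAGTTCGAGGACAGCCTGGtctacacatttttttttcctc
Element in region 19 (chr6:128843287-128843382, plus strand): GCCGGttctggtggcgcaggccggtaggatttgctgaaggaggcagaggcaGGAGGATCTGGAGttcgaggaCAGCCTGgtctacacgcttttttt

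The others are the single region with a match to the CTCF motif and regions of the genes outside the Nkrp1 group. For Clec2d and Cd69 only the bases before the gene start are shown. Capitals mark footprints of both libraries in regions 13 and 26, and of replicate 2 in regions 30, 31 and 33, which had none in replicate 1. Region 32 had none in either library.
Region 13, between Klrb1c and Klrb1b (chr6:128808601-128808800, plus strand): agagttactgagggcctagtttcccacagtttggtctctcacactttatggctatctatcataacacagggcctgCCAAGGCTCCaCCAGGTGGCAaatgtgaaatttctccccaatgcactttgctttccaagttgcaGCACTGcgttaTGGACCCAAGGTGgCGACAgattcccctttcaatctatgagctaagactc
Region 26, before Clec2d (chr6:129180421-129180614, plus strand): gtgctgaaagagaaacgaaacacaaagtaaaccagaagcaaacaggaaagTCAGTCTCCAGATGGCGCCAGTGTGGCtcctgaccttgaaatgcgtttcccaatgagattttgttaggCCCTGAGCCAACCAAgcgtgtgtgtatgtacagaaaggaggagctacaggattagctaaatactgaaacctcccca
Region 30, before Cd69 (chr6:129275437-129275540, minus strand): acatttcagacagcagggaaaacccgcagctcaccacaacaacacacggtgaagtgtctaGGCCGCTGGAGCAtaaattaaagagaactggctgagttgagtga
Region 31, 5′ of Cd69 (chr6:129284521-129284700, minus strand): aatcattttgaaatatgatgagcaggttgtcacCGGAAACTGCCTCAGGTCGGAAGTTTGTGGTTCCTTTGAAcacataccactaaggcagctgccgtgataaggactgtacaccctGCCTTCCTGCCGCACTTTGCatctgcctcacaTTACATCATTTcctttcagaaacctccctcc
Region 32, before Klrd1 (chr6:129591694-129591779, plus strand): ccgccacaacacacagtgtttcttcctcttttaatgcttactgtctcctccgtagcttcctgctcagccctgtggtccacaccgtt
Region 33, 5′ of Klrc1 (chr6:129680457-129680629, minus strand): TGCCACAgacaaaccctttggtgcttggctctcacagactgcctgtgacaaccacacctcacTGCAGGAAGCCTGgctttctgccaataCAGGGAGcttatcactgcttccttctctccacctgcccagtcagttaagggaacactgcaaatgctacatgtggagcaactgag

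Klrb1c (chr6:128778485-128789215, minus strand) and Klrb1b (chr6:128813706-128826331, minus strand) held most of the peaks. Klrb1c was assigned 6 peaks in replicate 1 and 9 in replicate 2, and Klrb1b was assigned 12 and 10. Of these, 6 regions at Klrb1c and 9 at Klrb1b were shared between the libraries. No peak overlapped either gene body. The nearest peak to Klrb1c was 9.66 kb from the gene in replicate 1 and 7.53 kb in replicate 2, and the nearest to Klrb1b was 4.91 kb away in both. With flanks of 5 kb in place of 20 kb, neither window held the midpoint of a shared distal region, although region 13 reached into that of Klrb1b. A region was distal when it touched no promoter window.

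Within windows of 20 kb flanks, Klrb1c had 17.7 shared distal regions per 100 kb and Klrb1b had 17.1. These densities ranked 4 and 5 among 14149 protein-coding genes with a window of at least 50 kb, whose median was 0.896. A shared region lay in 5 of the 8 windows, against 76% of those of all protein-coding genes, and a shared distal one also in 5, against 51.2%. With overlap of at least 50% of both peaks the densities were 9.86 and 11.4, and with flanks of 100 kb they were 7.59 and 7.52. Both windows include the space between the genes, so regions 7, 9, 11, 12 and 13 count in both densities. By the levels of distal peaks in each library and of shared ones, on a log2(1 + x) scale, the 3 genes nearest to Klrb1c among 14140 were Per1 on chromosome 11 (distance 0.251), Trim7 on chromosome 11 (distance 0.439) and Adamtsl4 on chromosome 3 (distance 0.474). Just outside the lower edge of the joint window, replicate 1 had a peak with a signal of 2.62, 4364 bp beyond it, and replicate 2 one of 1.19, 3884 bp beyond it. Just inside that edge lay region 1. Beyond the upper edge, the nearest peak was 3709 bp away in replicate 1 (signal 1.08) and 7829 bp away in replicate 2 (signal 5.54).

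**Figure D1:**
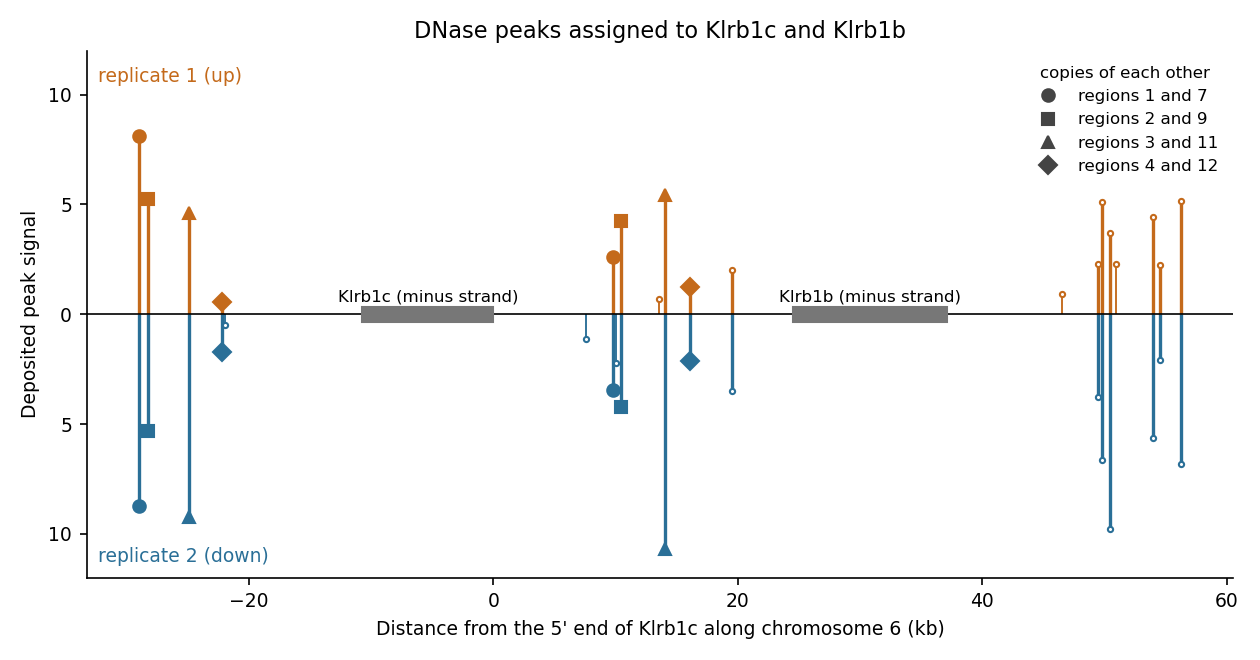
Peaks assigned to Klrb1c and Klrb1b, by distance in kb from the 5′ end of Klrb1c (x axis) and deposited peak signal (y axis), with replicate 1 drawn upward and replicate 2 downward. Grey bars are the gene bodies and thick lines are regions found in both libraries. Equal filled symbols mark copies shared by the group 3′ of Klrb1c and the group between the genes, and copies within the group 5′ of Klrb1b are not marked. The peaks fall into groups outside both genes, and the highest reach 8.13 in replicate 1 and 10.7 in replicate 2.

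Regions 1 to 4 formed the group 3′ of Klrb1c, spanning 7.04 kb. Signals are the values the authors deposited per peak, on a scale that no label or file header names. Region 1 had a signal of 8.13 in replicate 1 and 8.75 in replicate 2, above 97.6% and 89.5% of the peaks of the library. Region 2 (chr6:128760781-128761080) had 5.24 and 5.30, and region 3 (chr6:128764161-128764400) had 4.62 and 9.25. Region 4 (chr6:128766881-128767160) was the weakest of the group, at 0.557 and 1.73. The first 3 thus were each above at least 81.2% of the peaks of either library, while region 4 was above 15.8% of the peaks of replicate 1.

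The group between the genes lay in an intron of Gm44511, a gene model that reads through this stretch. Region 7 (chr6:128798881-128799100) had signals of 2.63 and 3.44 in replicates 1 and 2. Region 9 (chr6:128799461-128799840) had 4.27 and 4.21. Region 11 (chr6:128803041-128803440) had 5.42 and 10.7, the highest value of the 8 genes in replicate 2. Region 12 (chr6:128805201-128805380) had 1.23 and 2.12, and region 13, without a counterpart, had 2.03 and 3.49. Region 13 was the single region of the 33 with a match to the CTCF motif, and 11 of the 12 letters of that match lay in footprints of both libraries. In windows of 200 bp around the peak midpoints, 4% and 3.33% of the peaks of the 8 genes had such a match in replicates 1 and 2. Of all peaks, 5.62% and 7.36% had one.

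Regions 1, 2, 3 and 4 aligned over their whole length with stretches that overlapped regions 7, 9, 11 and 12, in the same order and on the same strand. The identities were 95%, 94.4%, 88.3% and 95.4%, and the offsets were 38784, 38742, 38885 and 38324 bp. In both libraries the copies of pair 1 and 7 differed most: region 1 had the higher signal, 8.13 against 2.63 in replicate 1 and 8.75 against 3.44 in replicate 2. Region 2 was also above its copy in both libraries, and regions 3 and 4 were below theirs in both. The direction within each of the 4 pairs was therefore the same in both libraries and was not tested.

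**Figure D2:**
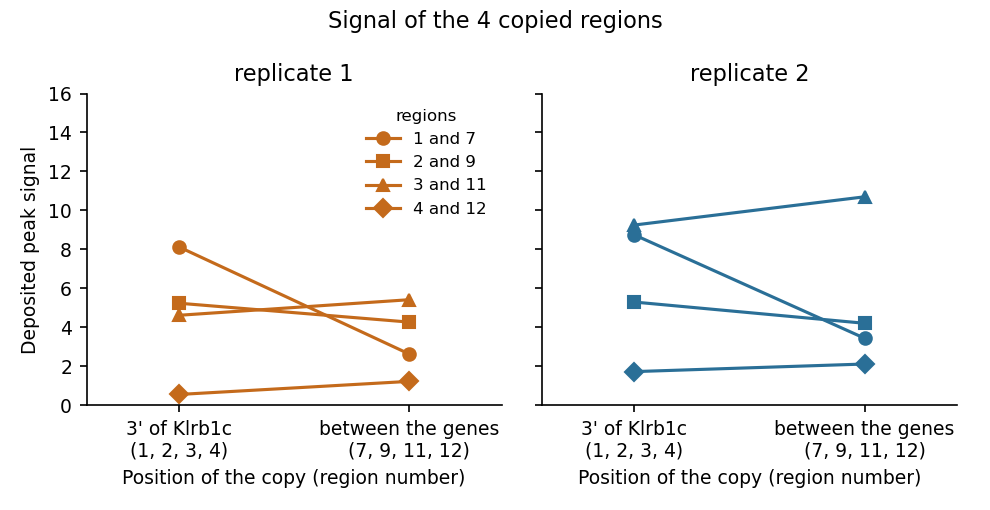
Deposited peak signal (y axis) of the 4 copied regions at each position (x axis), joined by lines, in replicate 1 on the left and replicate 2 on the right. Regions 1 and 2 exceed their copies in both libraries and regions 3 and 4 do not; pair 1 and 7 has the steepest line, from 8.13 to 2.63 in replicate 1.

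Reads from copies this alike can be hard to place. Over the aligned length of either region of a pair, the longest run of identical bases was 98 bp in pair 1 and 7, 85 bp in pair 2 and 9, 53 bp in pair 3 and 11, and 82 bp in pair 4 and 12. How the authors treated reads that fit several places, and how long the reads were, is stated in no label or header, and the part of this in the signals was not tested. Not every copied stretch was called: the copies of region 8 (98.1% identity, found in replicate 2) and of region 10 (94.0% identity, found in replicate 1) held no peak in either library. Regions 8 and 10 themselves overlapped intervals listed in the library without the peak. The lowest FDR was 7.31e-14 at region 8 in replicate 1 and 3.45e-04 at region 10 in replicate 2. Searched against the whole assembly at 90% identity over 80% of the length, 6 of the 20 shared regions of the 8 genes (30%) had a further copy, as did 37 of the 1787 shared regions of chromosome 6 (2.07%). All further copies of these genes' regions lay in the complex itself.

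Footprints fell on corresponding bases of the copies to differing degrees, and the shares depend on which copy is taken first. In pair 2 and 9, of the aligned bases in a footprint in region 2, 83.3% were in one in region 9 in replicate 1 and 66.7% in replicate 2, while footprints covered 37.3% and 34.3% of the aligned bases of region 9. In pair 3 and 11 these shares were 74.5% and 88.2%, against 40% and 55.8% of the aligned bases. In pair 1 and 7 the shares were 29.5% and 37.5%, against 18.3% and 22.8%. Taken from region 7, which had fewer footprint bases, 82.5% and 75.9% were also in a footprint of region 1, where footprints covered 51.6% and 48.9%. In pair 4 and 12 the shares from region 4 were 60.9% and 69.6%, against 14.6% and 15.7%, and from region 12 they were 34.1% and 72.7%, against 12.8% and 25.6%. In the printed pair, the capitals of region 1 in the stretch around GAGCTCATGTAGCTAC recur in the copy, and those near both ends do not.

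The group 5′ of Klrb1b held 6 shared regions in 7.18 kb. Region 15 (chr6:128838401-128838900) had signals of 2.29 and 3.77, and region 16 (chr6:128838901-128839140) had 5.11 and 6.64. Region 17 (chr6:128839581-128839780) had 3.71 and 9.79. Regions 19 (chr6:128842921-128843400; 4.44 and 5.62) and 20 (chr6:128843461-128843960; 2.23 and 2.09) lay at the starts of the long noncoding RNA genes Gm44066 and Gm26656. Region 21 (chr6:128845361-128845580; 5.15 and 6.80) lay in an exon of Gm26656 and Gm44067. Region 18 (chr6:128840041-128840240) was found in replicate 1 only, at 2.27, and no interval under an FDR of 0.05 was listed there in replicate 2.

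The group 5′ of Klrb1b held copies within itself and shared shorter pieces with the other groups. Region 15 aligned over 90% of its length with a stretch reaching into regions 19 and 20, at 86% identity and an offset of 4869 bp. Region 20 aligned over 97% of its length with a stretch reaching into regions 15 and 16, at 77.7% identity. A run of 93 bp in region 16 was found without a mismatch, on the opposite strand, at chr6:128760085-128760177 and chr6:128798869-128798961, which reach into regions 1 and 7. The element of 102 bp in region 15 recurred at regions 2, 3, 9, 11 and 19, which its copies overlapped in whole or in part, at 95% to 99.0% identity. From 80.8% to 82.2% of its bases were soft-masked, the mark of repeats in the assembly. The copies had between 14 and 27 bases in footprints of both libraries. In all 6 the footprints of both libraries reached the letters GTTCGA. All 6 of these bases were in capitals in the copies at regions 2, 3 and 15, 5 at regions 9 and 11, and 1 at region 19. In the copies at regions 2 and 3 these letters lay outside the region, below its start at chr6:128760781 and chr6:128764161. At region 11 they spanned the edge of the region. As background, such letters form the core of the B box of RNA polymerase III promoters, in transfer RNA genes and in some short repeats. No binding was measured here.

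The element is not confined to this locus. With the same cut-offs, 46 copies in the assembly overlapped no region of these genes, 17 of them on chromosome 6. Any of these that lay inside the windows of the genes were not counted apart. Of the 46, 3 (6.52%) overlapped a peak in either library, and the same 3 did so in both. A further 545 copies of under 90% identity, also outside the regions of these genes, included 3 (0.55%) with a peak in either library. The 6 copies at Klrb1c and Klrb1b were those that overlapped a region of these genes, so each overlapped a peak by the choice made. Of them, 4 did so in replicate 1 and 4 in replicate 2, and 2 of the 6 did so in both. The element itself was also taken from an open region. This count therefore cannot be set against the shares of the other copies, and alignment to repeats was not tested.

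Klrb1f (chr6:129045901-129057464, plus strand) had a promoter peak in both libraries, as did 56.7% of all protein-coding genes. It was region 24 (chr6:129049141-129049420), with signals of 0.909 and 2.00. The peak lay 3380 bp into the gene, at an internal start that the annotation gives to shorter transcripts, and beside the start of Gm44000. At the 5′ end of the gene no peak was called. Region 25 (chr6:129066961-129067400), 3′ of the gene, was shared at 0.996 and 1.23, with 7 and 5 footprints. Regions 22 and 23 5′ of the gene were found in replicate 2 only, at 1.37 and 2.39.

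Clec2d (chr6:129180615-129186534, plus strand), the gene of the ligand Clr-b, had the strongest promoter of the 8 genes in both libraries. Region 26 spanned the start of the gene (chr6:129180421-129180960), with a signal of 3.17 in replicate 1 and 4.10 in replicate 2. It held 6 and 9 footprints. Region 27 (chr6:129181737-129181960), in an intron, had 1.28 and 1.32, with 2 footprints in replicate 1 and none in replicate 2, and was 33.9% soft-masked. Region 28 lay 3′ of the gene in replicate 1 only, at 1.47.

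Cd69 (chr6:129267325-129275436, minus strand) had no shared region. In replicate 2 its promoter carried region 30 (chr6:129275301-129275540), with a signal of 2.10 and 2 footprints, and no interval under an FDR of 0.05 was listed at the promoter in replicate 1. Across all protein-coding genes 3.38% had a promoter peak in replicate 2 only, and 2 of the 8 genes did, Cd69 and Klrd1. A promoter peak in replicate 1 only was found at 6.41% of genes and at none of the 8. Region 31 (chr6:129284521-129284700), 9175 bp 5′ of the gene, was the strongest of the regions found in 1 library, at 4.22 in replicate 2 with 3 footprints. In replicate 1 it was present in the longer list alone, at 0.235, with a lowest FDR of 0.00296. Replicate 1 had a single peak at Cd69, region 29 (chr6:129255104-129255280), 3′ of the gene, at 0.760. The genes nearest to Cd69 by the measure used for Klrb1c were Gzmk (0.0279), Rab27a (0.0506) and Klhl11 (0.0562), each with about as few distal peaks and no shared one.

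The sequence of region 31, printed above, held the RUNX letters TGTGGT and the TCF letters CTTTGAA within capitals, and 5 of the 6 letters of the ETS match CCGGAA were in capitals. Region 30 held TGTGGT on the other strand, outside the capitals. A letter match is a description and shows no binding.

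The genes of the CD94 and NKG2 receptors had few peaks, all weak. Klrd1 (chr6:129591782-129598775, plus strand) had region 32 at its promoter in replicate 2, with a signal of 0.447, above 3.38% of the peaks of that library, and no footprint. Klrc1 (chr6:129666015-129678973, minus strand) had region 33, 1570 bp 5′ of a start, in both libraries, at 0.290 and 0.385, above 2.26% and 1.89% of the peaks. It held 3 footprints in replicate 2 and none in replicate 1. Klrk1 (chr6:129610323-129623864, minus strand) had no peak assigned, the nearest to the gene being 50.7 kb away in replicate 1 and 18.5 kb in replicate 2, where it was the peak at Klrd1. Promoters without an interval under an FDR of 0.05 in either library were those of Klrb1c, Klrb1b, Klrk1 and Klrc1. On chromosome 6, 65.3% of protein-coding genes had such an interval in replicate 1 and 62.5% in replicate 2.

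**Figure D3:**
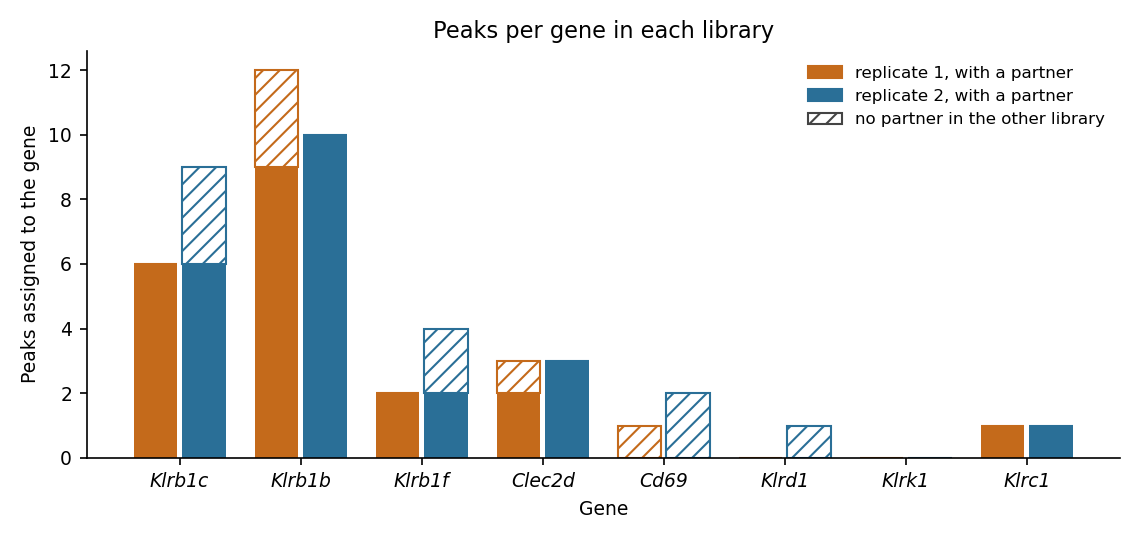
Number of peaks assigned to each gene (y axis) in replicate 1 (orange, left bars) and replicate 2 (blue, right bars). Filled parts are peaks that overlap a peak of the other library and hatched parts are peaks that do not; Klrb1b has 12 and 10 peaks, and Cd69 and Klrd1 have hatched parts alone.

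The share of peaks with a partner in the other library is a description, since most of these peaks belong to the genes chosen by shared regions. In replicate 1, 20 of 25 had a partner (80%), against 43.1% of all peaks of the library and 32.3% of its distal peaks. In replicate 2, 22 of 30 had one (73.3%), against 60.6% and 49.1%. Klrb1c and Klrb1b gave 15 of 18 and 16 of 19. The other 6 genes gave 5 of 7 in replicate 1 (71.4%, Wilson 95% interval 35.9% to 91.8%) and 6 of 11 in replicate 2 (54.5%, interval 28% to 78.7%), intervals that hold the shares of the whole library and cover the counting of peaks only. Where the overlap had to reach 50% of both peaks, 14 of 25 peaks (56.0%) in replicate 1 and 15 of 30 (50%) in replicate 2 had a partner.

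In the 20 shared regions the ratio of the signal in replicate 2 to that in replicate 1 had a median of 1.31, from 0.938 to 3.11, and a median of 1.34 over the 35251 shared regions of the series. It was above 1 in 18 of the 20 regions, against 67% of all shared regions. Over the distal shared regions of the series the median was 1.13, with 9668 of 16659 above 1, and 4 of the 20 regions lay at promoters. Regions 9 and 20 were the exceptions. The highest ratio belonged to region 4.

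**Figure D4:**
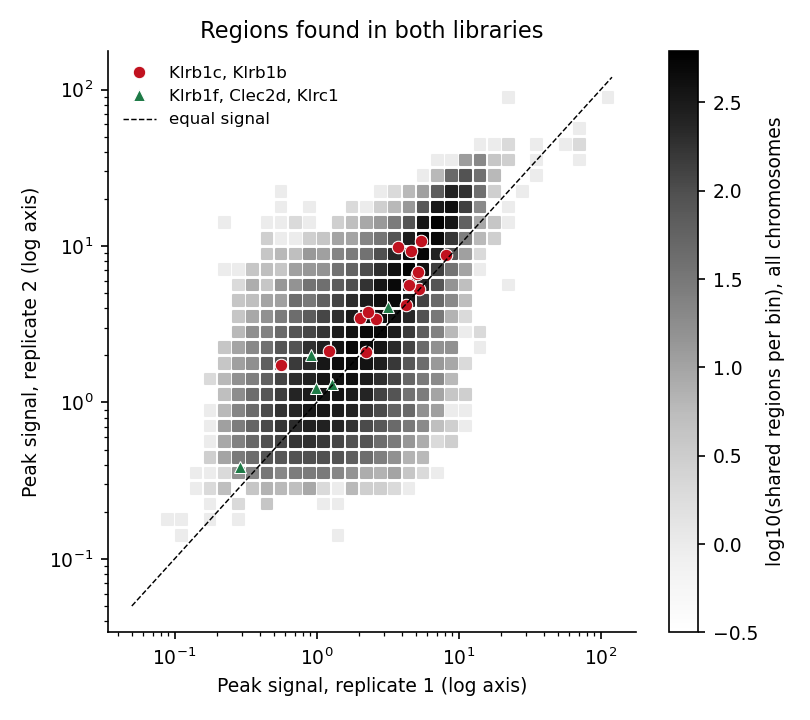
Peak signal in replicate 1 (x axis, log scale) against replicate 2 (y axis, log scale) for regions found in both libraries; grey squares are bins of all 35251 shared regions, shaded by the log10 number per bin. Circles are the regions of Klrb1c and Klrb1b, triangles those of Klrb1f, Clec2d and Klrc1, and the dashed line marks equal signal; 18 of the 20 points lie above it.

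Repeats made up a smaller part of the shared regions than of the windows, but a larger part than in the shared regions of the series. The shared regions had a median of 13.8% soft-masked bases, against 3.33% of all shared regions and 5.79% of the distal ones, while the windows as a whole were 34.2% masked and chromosome 6 was 33.8% masked. Region 16, at 50%, was the single one of the 20 shared regions with at least 50% masked bases, and regions 7 (48.2%) and 1 (45.6%) followed. Over the series, 3.67% of all shared regions and 6.55% of the distal ones were masked that far. Of the 20, 5 held no masked base: regions 17, 21, 24, 25 and 33. Over the series, 46.9% of all shared regions and 44.2% of the distal ones held none. The 5 regions found in replicate 1 only had a median of 0% and the 8 found in replicate 2 only a median of 10.7%. The Clec2d window was the most masked, at 54.6%, and the Klrb1b window the least, at 25.4%.

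Of the peaks of the 8 genes, 22 of 25 in replicate 1 (88.0%) and 24 of 30 in replicate 2 (80%) held a footprint, against 81.7% and 89.1% of all peaks of the library, so these shares were near the background. The regions held 102 and 100 footprints, with median widths of 12 and 13 bp. Region 11 had the most in replicate 1, 11, as did region 19. Of the footprints in the peaks, 69.5% in replicate 1 and 62.6% in replicate 2 overlapped one of the other library, against 40.1% and 46.2% of all footprints in peaks. Among peaks with a partner these shares were 76.0% and 68.7%, against 67.6% and 64.3%.

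In windows of 200 bp around the peak midpoints, the RUNX letters TGTGGT, on either strand, were found in 9 of 25 peaks in replicate 1 (36.0%) and 13 of 30 in replicate 2 (43.3%), against 12.6% and 16.4% of all peaks. Copies count more than once here: regions 4 and 12, which are copies of each other, both hold the letters. Regions 15, 19 and 20 hold them too, and parts of region 15 align with regions 19 and 20 at 77.7% to 86% identity. The E-box letters CANNTG were in 13 of 25 and 14 of 30 peaks, against 68.5% and 65.6% of all peaks. The T-box letters TCACACC were in 1 peak in each library, a share of 4.00% and 3.33% against 2.92% and 2.89%. Further motifs were searched. The STAT letters TTCNNNGAA were in 3 of 25 and 3 of 30 peaks (12% and 10%), against 5.47% and 4.60%. Copies count more than once here too: over their whole length only regions 1, 7, 15 and 16 held these letters, and regions 1 and 7 are copies of each other. AP-1 and ETS CCGGAA shares also lay above those of all peaks in both libraries. The GATA letters AGATAA were in 4% and 3.33%, against 8.09% and 5.22%, and CTCF and ETS AGGAAGT shares also lay below. NFAT, SP and TCF shares were not above or below in both.

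The other genes of the complex gave a sparse background. Of 35 listed genes, 1 had a promoter peak in replicate 1 and 2 had one in replicate 2. These were Styk1, a kinase-like gene at the edge of the complex, with 3.83 and 5.25, and Clec2i, a paralogue of Clec2d, with 2.89 in replicate 2 only. The most peaks in a window were at Styk1 (7 and 3), Clec2i (0 and 6), Klrb1a (5 and 1) and Clec2f (3 and 3). In 17 of the 35 windows no peak was found, among them those of every listed Klra gene, which encode the Ly49 receptors. Klrb1a and Klrb1, the other Nkrp1 genes listed, had 1 shared region each, against 9 and 11 in the windows of Klrb1c and Klrb1b.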

How the data were processed

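The data are 2 DNase-seq libraries labelled as thymus. The deposited files give, per library, 2 peak lists with a signal per peak, a footprint list with a constant score of 0.01, and a table of intervals with an FDR under 0.05. Per the file headers and labels, signal is the authors' own peak value, the score is a constant the authors deposited with each footprint, and the FDR is a p-value type value deposited by the authors. Per the labels, each list comes from the library's filtered mm10 alignment. Caller, aligner, depth and scaling: not given in the sources used here. Of the 2 peak lists, the shorter was used in the main results.

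Peaks were merged and assigned in python 3.11.15 with numpy 2.4.6, using GENCODE vM21 and RefSeq GRCm38.p6, whose chromosome lengths match the files. Promoters were within 1 kb of a transcript start. Copies were searched with blastn 2.17.0 (word size 32 for the assembly), and the finer alignments within the complex were added after seeing the data. The interval steps were tested on simulated data. The genes and lists were chosen with earlier results of these data known. All 8 genes are named. Of other complex genes, the 4 with most peaks and those with a promoter peak are named, with Klrb1 added after its values were seen. Of regions, the strongest and those at promoters are named, and the others were chosen after their values were seen. Intervals cover counting error only.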

Additional observations from a re-analysis of the deposited data

How the results depend on the processing

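No paired analysis was possible because there is 1 group of 2 libraries. Of 77 alternative values of the summaries, 52 stayed within the tolerance of the reported value and 25 moved; for single genes 85 of 136 stayed and 51 moved. Promoters open in both libraries fell from 2 to 1 with the stronger 50% of peaks or with only the 5′ end of each gene, where Clec2d remained; leaving out a library gave 2 to 4. The flank moved most counts. With 5 kb there were 4 shared regions, 4 and 8 peaks in replicates 1 and 2, and a mean of 2.5 distal peaks, and 100% of the replicate 1 peaks had a partner. With 100 kb there were 32 shared regions, 51 and 57 peaks, and a mean of 39.5 distal peaks. The longer lists gave 50 peaks in replicate 2, a mean of 35.5 distal peaks, footprints in 64.9% of replicate 1 peaks and a masked median of 8.08% in its peaks without a partner. With the stronger 50% that median was 33.9%, and footprints were in 91.3% of replicate 2 peaks. An overlap of at least 50% of both peaks left 56.0% and 50% of peaks with a partner. Without a library, the mean of distal peaks was 21 to 22. The median of the 8 densities of shared distal regions, 1.91 per 100 kb, was 2.98 with the longer lists, 0.944 with the 50% overlap, and 0 with stronger peaks, promoters of 2500 bp or flanks of 5 kb. An alternative chosen after seeing the data left out the 9 regions with a copy of at least 90% identity: 14 shared regions remained, and 77.8% and 72.7% of peaks had a partner. Why values moved was not tested, apart from flanks and filters that change how many peaks are counted.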
